A study of Mus musculus with 28 samples.

Results

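Corticosterone-treated and vehicle-treated cultures of DC2 cells were compared at day 3, the end of the hormone exposure, in 4 libraries per group. These 8 libraries were chosen by treatment and day from the 28 of the study, and 13128 genes were examined in them. DC2 is an immortalized mouse line derived from the distal caput of the epididymis, the duct in which sperm mature, and the labels call it an epididymal epithelial cell. Cells grew on rat tail collagen in serum-supplemented Iscove's medium with penicillin-streptomycin. The treated group received corticosterone at 500 ng/ml dissolved in ethanol from confluence onward, and the vehicle group received ethanol at 0.1%. Both were collected at day 3, before the medium change. The other 20 libraries came from day 0 cultures, labelled vehicle and collected before treatment, and from treated and vehicle cultures at days 6 and 9, after the hormone had been withdrawn. All 28 come from this single line, and no label tells whether the libraries of a group came from separate cultures, so p-values measure only the spread between libraries.

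Corticosterone is the main glucocorticoid of rodents. It enters cells and binds the glucocorticoid receptor, which is held ready in the cytoplasm by heat shock proteins and immunophilins, moves to the nucleus and binds a palindromic DNA element. Target genes are then induced, while the activity of NF-kB, AP-1 and interferon regulatory factors at inflammatory genes is often reduced. In the epididymis glucocorticoid receptors are found along the epithelium, whose cells build the luminal fluid by transporting ions and water and by secreting proteins.

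Promoters that hold the receptor's palindrome are shown first, because the element is the letters the receptor is known to bind. RefSeq promoters (250 bases before to 50 after a transcription start, mouse build GRCm38.p6, the build of the submitters' mm10) were found for 10074 of the 13128 genes (76.7%). The relaxed palindrome searched was GNACA, any 3 bases, TGTNC, where N is any base, which reads the same on both strands. It occurred in 47 genes (0.467%). Among genes higher with corticosterone 24 of 2409 held it (0.996%), and among genes lower 5 of 2592 did (0.193%). Among those at least 2-fold higher 11 of 357 held it (3.08%), and among those at least 2-fold lower 0 of 292. The stricter form AGAACA, any 3 bases, TGTTCT was found in 1 gene of all 10074, Sgk1, upstream of 1 of its 6 listed starts. The 3 stretches below are those of the called list members with the smallest p. Capitals mark the palindrome, and each stretch is 100 bases long and lies upstream of the start, printed 5′ to 3′ on the gene's strand.
Sgk1, chr10:21993658-21993757, plus strand: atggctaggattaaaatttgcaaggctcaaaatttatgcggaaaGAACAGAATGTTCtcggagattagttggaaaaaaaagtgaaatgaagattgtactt
Folh1, chr7:86776007-86776106, minus strand: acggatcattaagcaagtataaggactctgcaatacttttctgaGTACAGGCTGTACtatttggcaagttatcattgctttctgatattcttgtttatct
Txnip, chr3:96557741-96557840, plus strand: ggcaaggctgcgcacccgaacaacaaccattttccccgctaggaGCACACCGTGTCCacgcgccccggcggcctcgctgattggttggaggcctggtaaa

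The palindrome of Sgk1 began 188 bases before the start, that of Folh1 198 bases and that of Txnip 172 bases. Sgk1, a kinase gene induced by serum and by glucocorticoids, stood at 9.47, 9.19, 9.43 and 9.45 log2 CPM (CPM is a gene's count scaled to a library of fixed size) in corticosterone replicates 1, 4, 5 and 6. In vehicle replicates 3, 4, 5 and 6 it stood at 3.16, 3.11, 3.3 and 3.44. The groups lay far apart, and on the linear scale the level was 670 ± 58 CPM (mean ± SD, n = 4) against 9.57 ± 0.99. Txnip, which encodes a binding partner of thioredoxin that limits glucose uptake, stood at 10.06, 10.39, 10.07 and 9.94 with corticosterone and at 9.3, 9.28, 9.42 and 9.31 with vehicle, a rise of 0.79 ± 0.07 (log2 fold change ± SE, limma adjusted p = 7.4e-10). The 11 genes at least 2-fold higher with the palindrome were Folh1 and Sgk1, Fam107a (5.82 ± 0.35), an actin-binding protein gene, the serpin gene Serpina3n (3.66 ± 0.24), the bile acid and steroid sulfate carrier gene Slc10a6 (3.66 ± 0.35), Ipcef1 (2.19 ± 0.40), the amylase gene Amy1 (1.97 ± 0.18), the muscle ubiquitin ligase gene Trim63 (1.89 ± 0.25), Pdzd7 (1.63 ± 0.18), Map3k6 (1.51 ± 0.14) and the carbonic anhydrase gene Car14 (1.05 ± 0.29). All of them were also higher without corticosterone replicate 4 (1.09 to 9.51). They are named because they hold the palindrome, and a match is a string of letters, not a measured binding site.

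**Figure D1:**
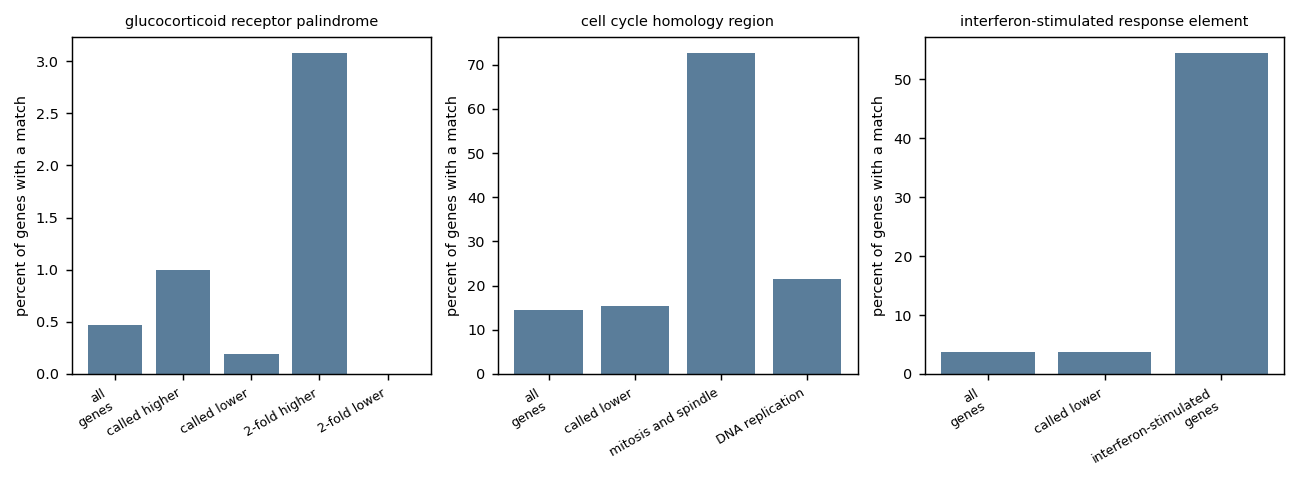
Percent of genes whose RefSeq promoter (300 bases) holds each of 3 motifs, on linear axes from 0, for all genes with a promoter and for groups of genes. The receptor palindrome stood in 3.08% of genes at least 2-fold higher and in 0.467% of all genes, the cell cycle homology region in 72.7% of mitosis genes, and the interferon-stimulated response element in 54.5% of interferon-stimulated genes.

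Treated libraries differed among themselves more than vehicle libraries did, and corticosterone replicate 4 stood apart from its mates. Per gene the median SD was 0.181 in the treated group, 0.0944 in its other 3 libraries and 0.0936 in the vehicle group. Replicate 4 lay farthest from its mates in 61.0% of genes, lay more than 0.5 from their mean in 2901 genes against 657 to 825 in replicates 1, 5 and 6, and received a limma library weight of 0.079 where the other day 3 libraries received 0.62 to 1.73. Its deviation followed transcript length. In the fifth of genes with the shortest transcripts (median 1079 bases) it stood 0.37 above its mates at the median, and in the fifth with the longest (median 5759 bases) 0.29 below. The part of length, RNA quality or handling in this was not tested. Each result below was therefore recomputed without that library. Total counts per library were not used here, so the depth is unknown.

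Epithelial markers were unevenly expressed. Of 11 epithelial markers 9 were in the table, and the kidney and genital duct factors Pax8 (6.62 to 6.93 treated, 6.93 to 7.12 vehicle) and Pax2, the keratin Krt18 and the claudin Cldn4 were well expressed. Over both groups Krt8 stood at -0.09 to 1.16 log2 CPM, Krt19 at -1.35 to -0.45 and Epcam, the epithelial adhesion molecule, at -0.76 to 0.87, all low. The summed level of the 9 was 250 to 280 CPM in treated and 282 to 296 CPM in vehicle libraries, without overlap. Pax8, the marker with the highest level, was at -0.21 ± 0.06 (log2 fold change ± SE). The 9 did not move together, with Cdh1 at -1.24 ± 0.13 and a further keratin at 1.26 ± 0.32. Of the principal cell markers 2 of 10 were measured (Spink8 and Aqp9), and Lcn5, Lcn8, Crisp1 and Gpx5, which define caput and corpus principal cells in the tissue, were not in the table. The sum of the principal cell pair was 9.84 to 16.9 CPM in treated and 0.543 to 0.805 CPM in vehicle libraries, from Spink8. The sums of treated and vehicle libraries did not overlap in 5 other marker lists either. Fibroblast markers (5 of 8) summed to 113 to 134 CPM against 60.9 to 65.4, carried by decorin (Dcn). A PDGF receptor gene was at 1.44 ± 0.47 and its relative at -0.60 ± 0.06. Col1a1 fell by 1.38 ± 0.18, and Col1a2 was at -1.25 ± 0.43 (adjusted p = 0.019), a call lost without vehicle replicate 5 (-0.78). Leukocyte markers (2 of 8) summed to 7.88 to 11.3 CPM against 28.4 to 29.6, mainly from Cd68, with Ptprc and Adgre1 not in the table. Clear cell markers (1 of 5, Car12) stood at 9.84 to 11.4 against 23.9 to 25.9, and endothelial markers (2 of 5) at 7.15 to 9.71 against 1.43 to 2.60, from Kdr, the VEGF receptor gene, at 2.39 to 2.90 log2 CPM against -3.04 to -2.42. The other endothelial marker, at 0.28 ± 0.33, overlapped between the groups. The single germ cell marker measured of 6, Ddx4, stood at 2.84 to 3.64 CPM against 1.34 to 1.98, with the protamine gene Prm1 not in the table. Basal cell and smooth muscle sums, from 1 and 2 measured markers, overlapped between the groups. The part of a change in cell types in the results was not tested, and in bulk RNA fewer cells of a type and less RNA per cell cannot be told apart.

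Differences between treated and vehicle cultures were widespread, and most were under 2-fold. Of 13128 genes 6429 passed limma's test at an adjusted p under 0.05 (49.0%), 3065 higher (23.3%) and 3364 lower (25.6%). Changes of at least 2-fold were found in 906 (6.90%), 478 higher (3.64%) and 428 lower (3.26%). The median log2 fold change of all genes was -0.01. In 5054 genes (38.5%) all 4 libraries of a group lay above all 4 of the other, 2467 with corticosterone above (18.8%) and 2587 below (19.7%). Without replicate 4, 6581 genes were called (50.1%), 3059 higher (23.3%) and 3522 lower (26.8%). In both fits 5647 genes were called with the same sign (43.0%), 2667 higher (20.3%) and 2980 lower (22.7%). Calls in 782 genes were lost without that library, 934 were gained, and 0 genes called in both fits changed sign. Of the 906 genes past 2-fold, 888 were called in both. Counts of list members below are to be set against the shares of all genes, 23.3% higher and 25.6% lower.

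**Figure D2:**
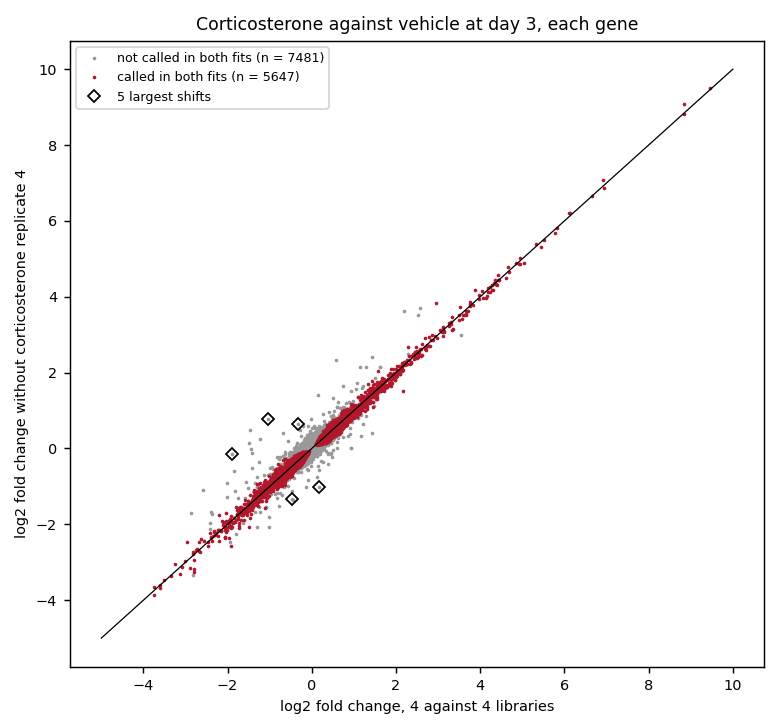
Log2 fold change of each gene at day 3 from 4 against 4 libraries (x axis) and without corticosterone replicate 4 (y axis), with the line of equality. The 5647 genes called in both fits lie along the line, and the 5 genes with the largest shifts (diamonds) lie off it.

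Leaving out replicate 4 shifts a gene's fold, by arithmetic, in proportion to that library's distance from its mates. The 5 genes with the largest shifts are therefore those where that distance was largest, among genes with a mean of at least 1 log2 CPM. Rpl10a-ps1, a processed pseudogene, stood at 3.48, -3.34, 3.65 and 4.82 log2 CPM in treated replicates 1, 4, 5 and 6, and at 3.53, 3.37, 4.37 and 1.55 in vehicle libraries. Pgam1-ps2 stood at 3.5, -4.15, 2.22 and 2.91 against 3.22, 3.13, 2.56 and 3.14, so its vehicle values lay close together. Grip2, a synaptic scaffold gene, stood at 4.88, 8.18, 2.79 and 2.62 in treated and at 4.80, 6.64, 3.3 and 3.02 in vehicle libraries (the vehicle values of the protocadherin genes Pcdhgc5 and Pcdhgc4 ran from 0.39 to 4.02 and from 2.63 to 4.09). With all 8 libraries limma called 0 of these 5 (adjusted p = 0.10 to 0.90), and leaving out a treated library led to a call for Pcdhgc4 (-1.34 without replicate 4) and Pgam1-ps2 (-2.69 without replicate 1 and -2.49 without replicate 6), and reads of pseudogenes and of clustered protocadherins can be assigned to their near copies.

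Among the largest rises were genes that were nearly silent with vehicle. The lowest value in the table is -4.15 log2 CPM, and folds against groups near it depend on the prior count. Folh1, a membrane carboxypeptidase that trims glutamates, stood at 6.04, 5.87, 5.95 and 6.05 in treated libraries and at -4.15, -4.15, -2.23 and -3.44 in vehicle libraries. Zbtb16, the zinc finger repressor PLZF, stood at 5.94, 4.99, 5.75 and 5.97 against -2.52, -4.15, -3.00 and -3.07. Aldh1a7, an aldehyde dehydrogenase gene, stood at 5.34, 5.62, 5.22 and 5.35 against -1.37, -2.50, -1.07 and -1.30. In vehicle libraries Folh1 was at the lowest value in 2 of 4, Zbtb16 in 1 of 4 and Aldh1a7 in 0 of 4. With corticosterone the 3 genes stood between 42 and 63 CPM, and Trim67, of the tripartite motif family, went from 5.54 ± 0.65 to 171 ± 17 CPM. Kank4, which encodes an adaptor of adhesion sites, stood at 4.26, 4.35, 4.28 and 4.48 against -1.60, -2.55, -0.20 and -0.32. Spink8, a serine protease inhibitor gene of epididymal principal cells, stood at 3.36, 4.08, 3.58 and 3.28 against -1.20, -1.22, -1.61 and -1.88. The gap between groups was wider than the spread within either in each of them, and groups without overlap were part of the rule that chose these genes.

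Among the other large rises, Igfbp4, which binds insulin-like growth factors, stood at 4.34, 3.47, 3.3 and 4.57 against -1.34, 0.10, -0.29 and -0.51. Lcn2, the siderophore-binding lipocalin, stood at 5.02, 5.33, 5.00 and 4.96 against 0.14, 0.76, 1.00 and 0.86. Adm, the vasodilator peptide adrenomedullin, stood at 3.6, 3.03, 3.15 and 3.48 against -0.42, -1.47, -1.24 and -1.02. Npr1, the receptor guanylate cyclase for natriuretic peptides, stood at 5.96, 6.3, 5.81 and 5.86 against 1.56, 2.04, 1.54 and 1.67, a rise of 4.28 ± 0.19. The glutathione transferase gene Gsta3 stood at 5.46, 5.90, 5.48 and 5.43 against 1.34, 1.21, 1.37 and 1.17. Crabp1, which binds retinoic acid in the cytosol, stood at 3.35, 3.71, 2.80 and 3.21 against -1.02, -1.52, -0.70 and -0.32. Of the 15 largest rises, the minimum level, the lack of overlap and the call without replicate 4 were part of the rule that chose them. Their folds without replicate 4 ranged from 4.01 to 9.51.

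The largest falls took in adhesion, cytokine receptor and interferon-related genes. Spp1, which encodes the secreted glycoprotein osteopontin, stood at -1.85, -1.18, -0.02 and -0.40 in treated and at 2.77, 2.84, 2.88 and 3.06 in vehicle libraries. Vcam1, the leukocyte adhesion molecule, stood at 2.46, 2.50, 2.31 and 2.34 against 5.72, 5.53, 5.22 and 5.51. Cdh6, a cadherin of the kidney and its ducts, stood at 4.30, 3.95, 4.28 and 4.20 against 6.96, 6.92, 6.87 and 6.98, so that 122 ± 4.2 CPM became 18.2 ± 2.0 CPM. Itgb6, a chain of the epithelial integrin that activates TGF-beta, stood at 0.52, 0.72, 0.70 and 0.65 against 3.36, 3.41, 3.23 and 3.35. Siglecg, a sialic acid-binding lectin gene, fell by 2.82 ± 0.27 and Samd5 by 2.82 ± 0.18, and in both the highest treated value was that of replicate 1. Nrep fell by 2.66 ± 0.14, the prostaglandin D synthase gene Hpgds by 2.55 ± 0.30 and the TNF receptor family gene Tnfrsf9 by 2.46 ± 0.18. The muscle and B cell repressor gene Msc fell by 2.23 ± 0.26, the ETS factor gene Etv4 by 2.23 ± 0.22 and Tmtc2, an O-mannosyltransferase gene, by 2.04 ± 0.12. Treated and vehicle values did not overlap in any of the 15, which was part of the rule.

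**Figure D3:**
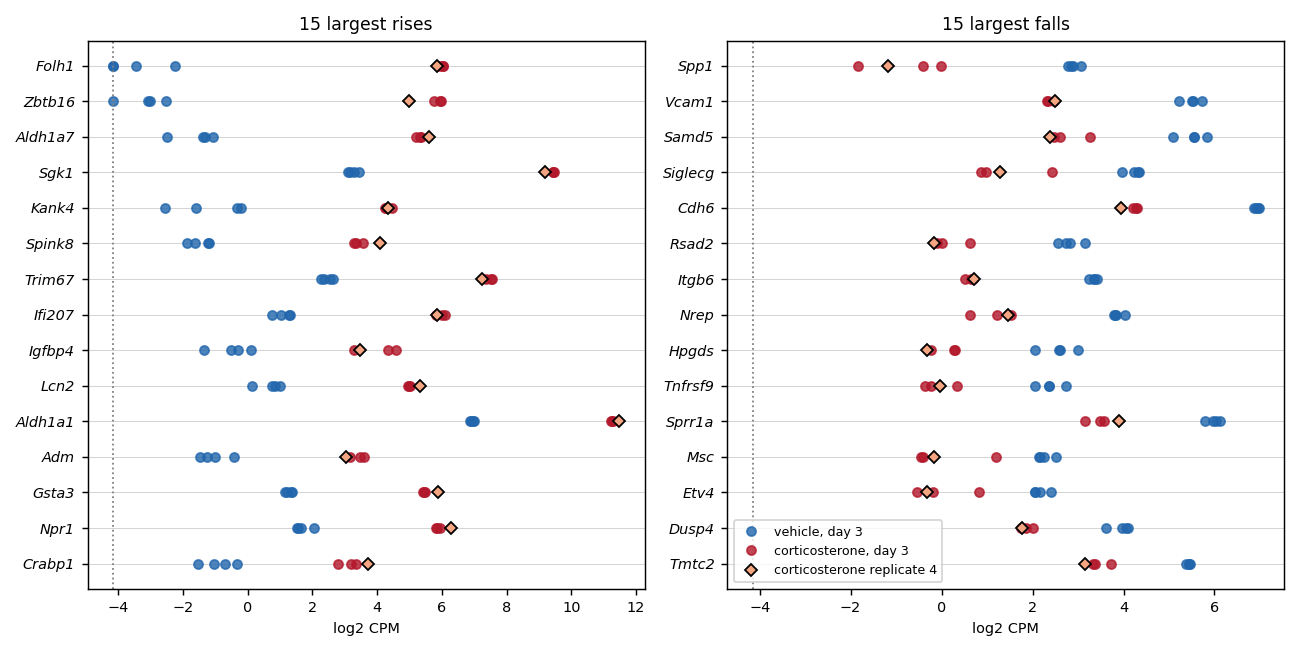
Log2 CPM of the 15 largest rises (left) and the 15 largest falls (right) in each day 3 library, with 1 point per library, vehicle in blue, corticosterone in red and corticosterone replicate 4 as a diamond. The dotted line marks the lowest value of the table, -4.15, and in each gene the treated and vehicle points stand apart.

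Measured as CPM gained rather than as folds, the 10 largest gains were in mitochondrial transcripts, ferritin, an aldehyde dehydrogenase, a serine incorporator, Ndrg1 and an ATP synthase subunit. CPM is not divided by transcript length, so these values do not order numbers of transcripts. The CPM of all genes summed to 981794 to 1028990 in treated and 949069 to 953423 in vehicle libraries. The values are thus not exact shares of a library, and the difference in sums enters the gains and losses. The mitochondrially encoded cytochrome oxidase gene mt-Co1 stood 8390 CPM higher with corticosterone, mt-Co3 2648 and mt-Co2 2637 CPM higher. Fth1, the ferritin heavy chain, stood at 11.95, 12.46, 11.95 and 11.92 log2 CPM against 10.76, 10.80, 10.91 and 10.83, a gain of 2541 CPM. Aldh1a1, which makes retinoic acid and clears aldehydes, stood at 11.29, 11.49, 11.24 and 11.26 against 6.88, 6.91, 7.0 and 6.95, a gain of 2439 CPM. Serinc3, a membrane protein gene, stood at 11.45, 11.11, 11.46 and 11.54 against 9.00, 8.91, 9.00 and 9.01, a gain of 2193 CPM. Ndrg1, a stress-responsive gene of differentiating epithelia, gained 1437 CPM and Atp5b, the catalytic subunit of ATP synthase, 1316 CPM. Replicate 4 held the highest value of Fth1 and Atp5b and the lowest of Serinc3, and without it their log2 fold changes were 1.11, 0.61 and 2.50.

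The 10 largest losses included membrane, matrix and cytoskeletal genes. The difference was -839 CPM for Ivns1abp, an actin-binding Kelch protein gene, -731 CPM for the melanosomal and lysosomal glycoprotein gene Gpnmb and -556 CPM for the fatty acid desaturase gene Scd2. The matrix genes Col18a1, Fn1, Tnc and Col6a1 changed by -443, -416, -342 and -341 CPM. Fibronectin, encoded by Fn1, stood at 8.52, 8.36, 8.46 and 8.75 against 9.57, 9.48, 9.82 and 9.58. The alpha-tubulin gene Tuba1b changed by -340 CPM and the cytosolic chaperone gene Hsp90ab1 by -302 CPM.

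In the machinery that receives the hormone a cochaperone gene rose and the receptor gene fell. Of 25 measured members of the receptor's machinery (of 27 listed) 3 were higher, 7 lower and 15 not called, with a median of 0.00, against 23.3% higher and 25.6% lower among all genes. Without replicate 4 the counts were 6, 8 and 11. Fkbp5, an immunophilin that lowers the receptor's affinity for hormone, stood at 9.26, 8.97, 9.31 and 9.37 against 6.16, 6.16, 6.20 and 6.21. H6pd, which supplies NADPH in the endoplasmic reticulum to the enzyme that regenerates corticosterone, rose by 0.69 ± 0.07. The receptor gene Nr3c1 stood at 6.97, 6.36, 7.13 and 6.89 against 8.14, 8.07, 7.95 and 8.21, with its lowest value in replicate 4 and a log2 fold change of -1.10 without it. Among the chaperones that hold the receptor, Hsp90aa1 fell by 0.30 ± 0.05 and the p23 gene Ptges3 by 0.28 ± 0.06, while the immunophilin gene Fkbp4 was at -0.05 ± 0.06 (adjusted p = 0.49). The coactivator gene Ncoa1 was at 0.24 ± 0.13 (adjusted p = 0.14), and at 0.41 and called without replicate 4.

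Of 34 measured textbook receptor targets (of 39 listed) 26 were higher, 4 lower and 4 not called, with a median of 1.02, against 23.3% higher and 25.6% lower among all genes and their median of -0.01. Without replicate 4 the counts were 25, 4 and 5. At the list's mean, replicate 4 (6.24 log2 CPM) stood within its mates (6.23 to 6.24), and the vehicle libraries stood at 4.69 to 4.78. Glul, glutamine synthetase, stood at 8.16, 7.85, 7.93 and 8.02 against 4.83, 4.98, 4.85 and 4.82. The Kruppel-like factor gene Klf15 stood at 6.09, 6.33, 6.08 and 6.06 against 3.28, 3.31, 3.5 and 3.36. Errfi1, a feedback inhibitor of the EGF receptor, rose by 0.96 ± 0.06 and Nfkbia, which retains NF-kB in the cytoplasm, by 0.31 ± 0.08 (adjusted p = 0.0025). The 4 lower members included Ucp2, a mitochondrial carrier gene, at -1.41, -0.71, -0.96 and 0.27 against 2.63, 2.66, 2.75 and 2.57, Timp3, a metalloprotease inhibitor gene, at -0.69 ± 0.05, and the transglutaminase gene Tgm2 at -0.77 ± 0.14. The cyclin kinase inhibitor gene Cdkn1a was at 0.04 ± 0.07 (adjusted p = 0.68).

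Retinoid and xenobiotic enzyme genes rose and fell. Of 20 measured retinoid genes (of 29 listed) 7 were higher and 7 lower (median -0.08). On the side of synthesis and storage, Adh1, an alcohol dehydrogenase that oxidizes retinol, rose by 4.32 ± 0.43 from near the lowest value, and Dhrs3, a retinaldehyde reductase, by 1.77 ± 0.10. The dehydrogenase gene Dhrs9 fell by 1.80 ± 0.16 and the binding protein gene Crabp2 by 1.55 ± 0.25, while Crabp1 rose. Reads of Aldh1a7 and Aldh1a1, close paralogs, may not be fully separated. Of 39 cytochrome P450 and steroid genes (of 50 listed) 17 were higher and 12 lower. Cyp4a12a, a fatty acid hydroxylase gene with near-identical relatives, stood at 5.14, 5.21, 5.05 and 5.14 against -3.55, -4.15, -2.93 and -4.15. Por, the reductase that feeds electrons to all microsomal P450s, stood at 10.25, 10.32, 10.06 and 10.13 against 8.64, 8.70, 8.72 and 8.70, 1170 ± 93 CPM against 413 ± 9.6 CPM. Cyp4b1 and Cyp2b10 rose by 4.92 ± 0.31 and 5.44 ± 0.46 and the glucuronosyltransferase gene Ugt1a6a by 1.42 ± 0.07. The androgen-activating reductase gene Srd5a2 fell by 1.17 ± 0.12 and Cyp1b1 by 0.46 ± 0.05.

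Glutathione and antioxidant genes were higher more often than lower. Of 46 measured members (of 57 listed) 20 were higher, 7 lower and 19 not called, and without replicate 4, 18, 15 and 13. The count of lower members was 4 without vehicle replicate 6 or corticosterone replicate 5. Gclc, the catalytic subunit of the rate-limiting ligase, rose by 1.46 ± 0.06. Gss, which completes glutathione, fell by 0.45 ± 0.06, the thioredoxin reductase gene Txnrd1 by 0.67 ± 0.04, and Ggt5, which splits glutathione outside the cell, was at -1.26 ± 0.39 (adjusted p = 0.0094), a call lost without vehicle replicate 6 (-0.89). Of 22 genes of metal and iron handling 8 were higher and 7 lower. Slc39a14, a zinc and iron importer, rose by 1.38 ± 0.11 and Mt1, a metallothionein, by 0.68 ± 0.11. The ferrireductase genes Steap3 and Steap4 fell by 1.11 ± 0.06 and 1.76 ± 0.15.

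Few genes of the epididymal lumen were measured, and those few moved both ways. Of 52 listed 15 were in the table, 4 higher, 5 lower and 6 not called, against 23.3% higher and 25.6% lower among all genes. Besides Folh1 and Spink8, the water channel genes Aqp1 and Aqp5 are named. Aqp1 stood at 1.70, 2.01, 1.49 and 1.84 against 3.58, 3.51, 3.45 and 3.52, and Aqp5 at -1.40, -0.99, -0.48 and -0.91 against 2.51, 2.72, 2.60 and 2.84. Clu, the secreted chaperone clusterin that coats sperm, stood at 3.43, 3.39, 3.46 and 3.41 against 4.85, 4.64, 4.88 and 4.57. The chloride channel gene Cftr was at -0.17 ± 0.10 (adjusted p = 0.17) and was called at -0.26 without corticosterone replicate 6.

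Ion transport genes of the aldosterone pathway moved in both directions, with 10 of 26 measured members (of 33 listed) higher, 5 lower and 11 not called, and 3 lower without vehicle replicate 3, 4 or 6 or corticosterone replicate 4. Scnn1a, the alpha subunit of the epithelial sodium channel, stood at 3.55, 3.53, 3.32 and 3.57 against 1.00, 1.63, 1.43 and 1.32. Its partner subunits were not in the table. The potassium channel gene Kcnk1 rose by 3.11 ± 0.41. Fxyd5, a regulator of the sodium pump, fell by 1.93 ± 0.20, Atp1b3, a beta subunit of the pump, by 0.26 ± 0.06, and Nedd4l, the ubiquitin ligase that removes the sodium channel and is restrained by Sgk1, by 0.24 ± 0.08. Hsd11b2, which inactivates corticosterone in aldosterone target cells, stood at 1.5, 1.66, 1.55 and 1.51 against 1.83, 2.08, 1.95 and 2.18, and its call (adjusted p = 0.022) was lost without vehicle replicate 4 or 6 (-0.43 and -0.40).

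**Figure D4:**
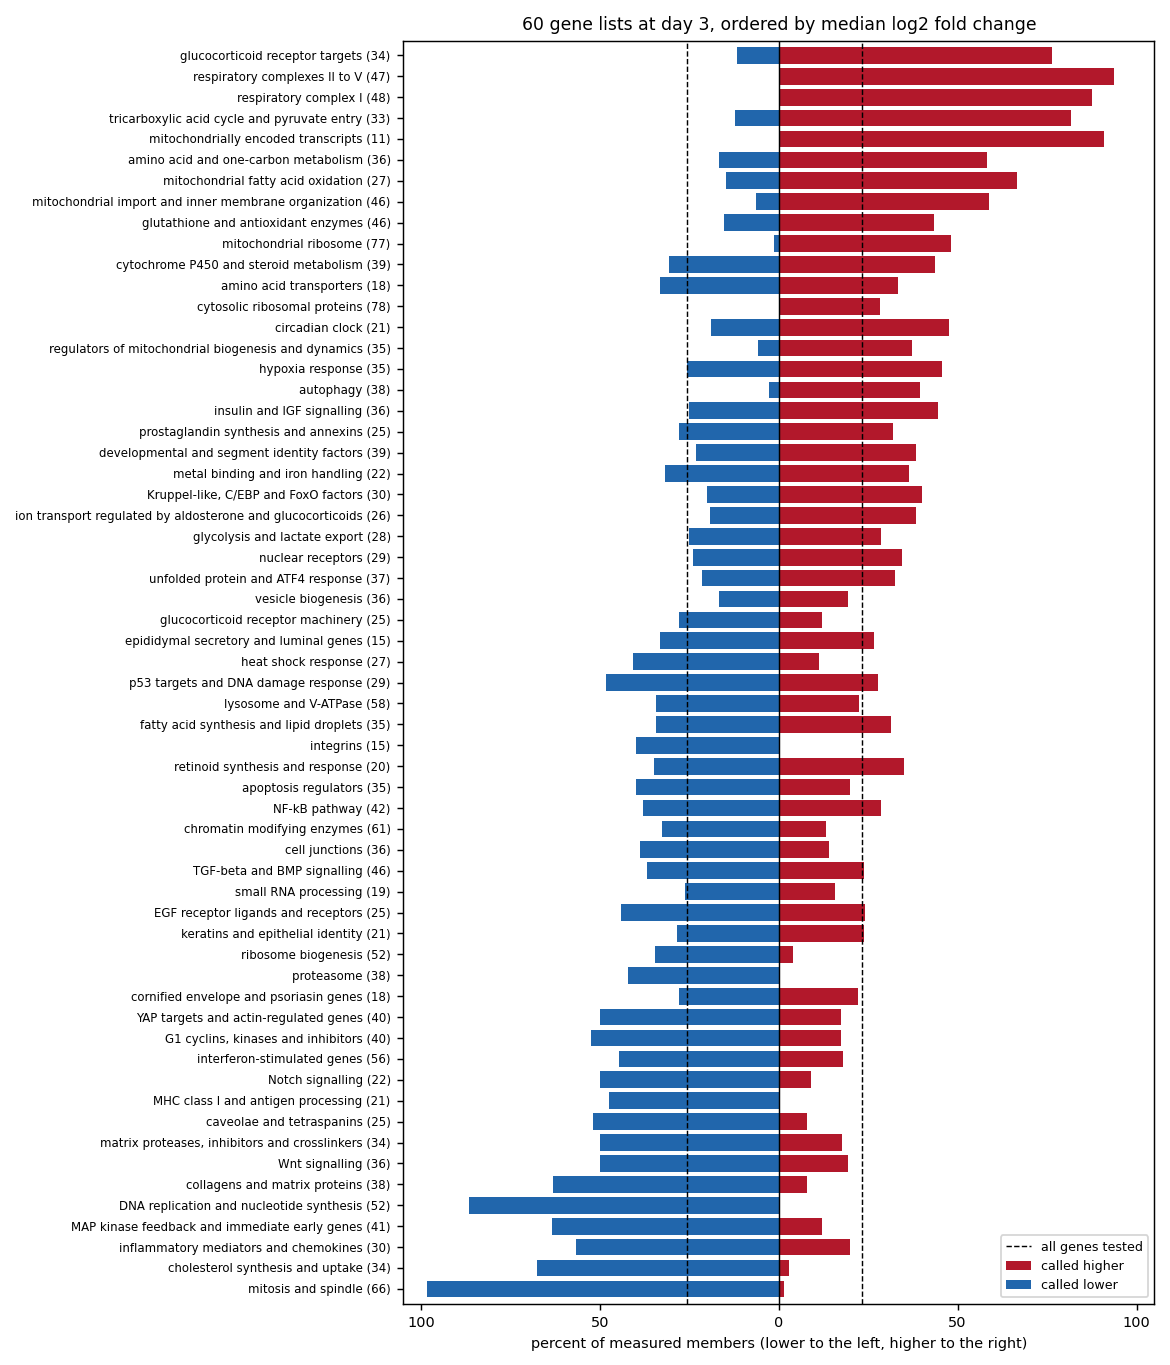
Percent of the measured members (number in brackets) of 60 gene lists called higher (red, right) or lower (blue, left) at day 3, ordered by the list's median log2 fold change, with dashed lines at the shares of all genes tested (23.3% higher, 25.6% lower). Respiratory chain lists extend to the right with 0 members lower, and the mitosis list extends to the left with 65 of 66 members lower.

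Respiratory chain genes rose together, by less than 2-fold each. Of 48 complex I genes 42 were higher, 0 lower and 6 not called (median 0.55), and of 47 genes of complexes II to V 44, 0 and 3 (median 0.62). Corticosterone replicate 4 stood highest on both lists (6.32 log2 CPM against 5.71 to 5.81 in its mates for complex I, and 7.61 against 7.07 to 7.14), and the part of this library's length-related deviation in the lists was not tested. Without it 39 and 43 members were higher, 0 were lower, and the medians were 0.40 and 0.48, and its mates still lay above the vehicle libraries (5.34 to 5.42 and 6.59 to 6.67). Ndufs1, the largest iron-sulfur subunit of complex I, stood at 7.61, 7.78, 7.71 and 7.52 against 7.0, 6.80, 7.08 and 6.89. Ndufb10 rose by 1.00 ± 0.11 (0.81 without replicate 4), the succinate dehydrogenase gene Sdhb by 0.89 ± 0.08 and the cytochrome oxidase gene Cox6a1 by 0.95 ± 0.11. Of the mitochondrial genome's own transcripts 10 of 11 measured were higher (median 0.43, and 0.39 without replicate 4), and they took 6.59 to 7.44% of CPM with corticosterone against 5.19 to 5.46% with vehicle. The calls of mt-Co1, mt-Co2, mt-Co3, mt-Cytb and mt-Atp6 ended with quantile normalization (-0.07 to 0.07), which gives the most abundant transcripts equal values in all libraries.

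The organelle's protein-making and import genes were higher in smaller shares. Of 77 mitochondrial ribosome genes 37 were higher and 1 lower (median 0.19). Without replicate 4 the counts were 25 and 4, the median was 0.07, and the mates' list means (4.87 to 4.93) lay just above the vehicle range (4.77 to 4.86). Of 46 import and inner membrane genes 27 were higher and 3 lower (20 and 7 without replicate 4), with Chchd10, a cristae protein gene, at 1.26 ± 0.15. Of 35 regulators of biogenesis and dynamics 13 were higher and 2 lower with replicate 4 and without it. Ppargc1a, the coactivator that drives mitochondrial biogenesis, stood at 8.39, 7.74, 8.23 and 8.35 against 6.76, 6.72, 6.72 and 6.75, and its partner receptor gene Esrra rose by 0.86 ± 0.06. Its relative Ppargc1b fell by 0.86 ± 0.15. The NRF1 site searched in promoters (GCGCA, any base, GCGC, on both strands) was in 9 of 42 complex I genes (21.4%) and 11 of 38 genes of complexes II to V (28.9%), against 11.5% of all genes. It was in 11% of genes called higher, 11% of genes called lower and 3.92% of those at least 2-fold higher. The part of the site in the rise of these lists was not tested.

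Genes of the tricarboxylic acid cycle and fatty acid oxidation were mostly higher, and glycolytic genes were mixed. Of 33 genes of pyruvate entry and the tricarboxylic acid cycle 27 were higher and 4 lower, also without replicate 4. Pdk2, like its relative Pdk4 a kinase that switches off pyruvate dehydrogenase, rose by 0.84 ± 0.08, and the malic enzyme genes Me1 and Me2, which make NADPH or pyruvate from malate, fell by 0.39 ± 0.05 and 0.49 ± 0.04. Of 27 fatty acid oxidation genes 18 were higher and 4 lower, among them Hadhb, the thiolase of the trifunctional protein, at 0.96 ± 0.08, and Cpt1a, the carnitine gate, at 0.42 ± 0.06, while the acyl-CoA synthetase gene Acsl3 fell by 1.01 ± 0.11. Glycolysis was split, with 8 of 28 higher and 7 lower (median 0.04), against 23.3% higher and 25.6% lower among all genes. Hk2, a hexokinase, rose by 1.03 ± 0.10 and Ldhb, the lactate dehydrogenase form that favours pyruvate, by 1.12 ± 0.12, while the pentose phosphate gene G6pdx fell by 0.44 ± 0.05. In amino acid and one-carbon metabolism 21 of 36 were higher and 6 lower (18 and 7 without replicate 4). Prodh, which starts proline breakdown, stood at 6.22, 6.38, 6.11 and 6.26 against 2.53, 2.60, 2.70 and 2.48. Glud1, glutamate dehydrogenase, stood at 9.07, 8.96, 9.07 and 9.04 against 7.44, 7.37, 7.27 and 7.30.

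Sterol synthesis genes were mostly lower, from the first steps to the last. Of 34 measured genes of cholesterol synthesis and uptake (of 36 listed) 23 were lower, 1 higher and 10 not called, with a median of -0.84, and without replicate 4, 26 were lower and 1 higher (median -0.91). List means were 5.22 to 5.31 log2 CPM in treated and 5.97 to 6.01 in vehicle libraries, with replicate 4 at 5.27. At the head of the pathway Hmgcs1 fell by 0.95 ± 0.07. Further on Cyp51, the lanosterol demethylase, stood at 5.87, 5.96, 5.85 and 6.02 against 7.58, 7.49, 7.56 and 7.56. Of their regulators Srebf2, the transcription factor, fell by 0.93 ± 0.08, and its escort gene Scap was at -0.10 ± 0.07 (adjusted p = 0.28), and at -0.18 and called without corticosterone replicate 6. The exception, Soat1, which esterifies cholesterol, was at 0.31 ± 0.12 (adjusted p = 0.044) and at 0.47 without replicate 4. Its call was lost on leaving out vehicle replicate 3, 4 or 5 or corticosterone replicate 1, 5 or 6, each in turn (0.22 to 0.32). CCAAT boxes (on either strand), the sites of the factor NF-Y, stood in 20 of 24 promoters of the list (83.3%) against 43.1% of all and 44.1% of genes called lower. In fatty acid synthesis and lipid droplets 11 of 35 were higher and 12 lower, with the desaturase gene Scd1 at -1.20 ± 0.05, the droplet coat gene Plin4 at 1.04 ± 0.07 and the phosphatidate phosphatase gene Lpin3 at 2.50 ± 0.20.

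Genes of cell division fell. Of 66 mitosis and spindle genes 65 were lower and 1 higher (median -1.05), with 40 members past 2-fold, and without replicate 4, 65 were lower and 0 higher (median -1.10). Treated list means were 4.44 to 4.61 log2 CPM and vehicle list means 5.42 to 5.6. Mki67, the proliferation antigen Ki-67, stood at 6.57, 6.36, 6.62 and 6.74 against 8.06, 7.88, 7.85 and 7.88. Kif11, the motor that separates spindle poles, stood at 4.45, 4.42, 4.73 and 4.51 against 5.82, 5.72, 5.64 and 5.65, and Ckap2l, a spindle protein gene, at 4.27, 4.54, 4.49 and 4.39 against 5.56, 5.47, 5.46 and 5.41. The exception, the securin gene Pttg1, stood at 5.18, 5.83, 5.10 and 5.00 against 4.90, 5.01, 5.07 and 4.86, and its call was lost without corticosterone replicate 4 (0.13) and without vehicle replicate 3 or 6 (0.30 and 0.29). Of 52 replication and nucleotide genes 45 were lower, 0 higher and 7 not called (median -0.46, and -0.52 with 49 lower without replicate 4), among them Mcm5, of the replicative helicase, at -0.76 ± 0.05, and Uhrf1, which maintains DNA methylation, at -0.99 ± 0.08. Of 40 regulators of the G1 phase 21 were lower and 7 higher, with cyclin genes Ccne1 and Ccnd1 at -1.02 ± 0.07 and -0.90 ± 0.14 and the growth-restraining factor gene Mxd4 at 0.52 ± 0.08.

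Each of 2 motifs was found in most promoters of the mitosis genes. The 3 stretches below hold the cell cycle homology region and are those of called members with the smallest p among promoters with a match. The cell cycle homology region (TTTGAA on either strand, so TTCAAA on the other) was in 40 of 55 mitosis promoters (72.7%), in 9 of 42 of replication (21.4%) and in 14.5% of all. It was in 15.4% of genes called lower and in 22.9% of those at least 2-fold lower. In 35 mitosis genes it lay within 60 bases of the start. CCAAT was in 39 of the 55 (70.9%), against 43.1% of all genes, 44.1% of genes called lower and 83.3% of the cholesterol list. Capitals mark the region, which occurs 2 times in the stretch from Mki67.
Mki67, chr7:135716425-135716524, minus strand: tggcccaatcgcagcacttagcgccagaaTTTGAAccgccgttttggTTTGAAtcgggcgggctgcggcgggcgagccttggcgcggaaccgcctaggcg
Kif11, chr19:37376282-37376381, plus strand: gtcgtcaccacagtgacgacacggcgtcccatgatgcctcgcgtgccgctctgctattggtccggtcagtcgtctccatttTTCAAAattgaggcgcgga
Ckap2l, chr2:129297213-129297312, minus strand: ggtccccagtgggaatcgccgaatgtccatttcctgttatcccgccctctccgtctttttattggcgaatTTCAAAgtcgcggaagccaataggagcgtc

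Counts of ribosomal protein and proteasome genes moved with single libraries. Of 78 cytosolic ribosomal protein genes 22 were higher, 0 lower and 56 not called (median 0.17). Replicate 4 stood at a list mean of 8.72 log2 CPM, its mates at 7.98 to 8.10 and the vehicle libraries at 7.98 to 8.11, and without it 5 members were higher, 11 lower and 62 not called (median -0.01). The count of higher members was 11 without vehicle replicate 6 and 34 without corticosterone replicate 6. Of 38 proteasome genes 16 were lower and 0 higher (median -0.15). Here replicate 4 stood at 6.45, its mates at 5.98 to 6.07 and vehicle at 6.25 to 6.31, and without it 29 were lower and 0 higher (median -0.25). Without corticosterone replicate 1 or 5 the count of lower members was 10 or 9. Psmd11, of the regulatory lid, fell by 0.43 ± 0.09 (0.45 without replicate 4). In ribosome biogenesis 18 of 52 were lower and 2 higher (24 and 2 without replicate 4, which stood apart on this list). The higher members included Rrs1, an assembly factor of the large subunit, at 1.12 ± 0.07. Called autophagy genes were mostly higher, with 15 of 38 higher and 1 lower (17 and 1 without replicate 4). The largest rise was that of Trim63 (1.89 ± 0.25). Gabarapl1, which decorates autophagosomes, rose by 1.24 ± 0.10 and Atg12 by 0.65 ± 0.05.

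**Figure D5:**
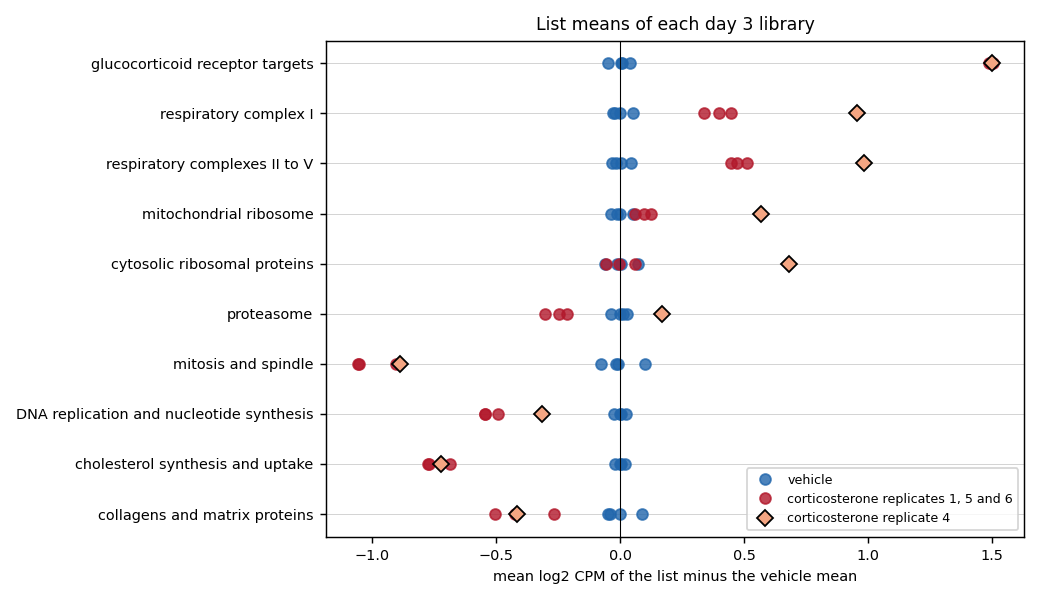
Mean log2 CPM of 10 gene lists in each day 3 library, minus the vehicle mean of the list, with vehicle in blue, corticosterone replicates 1, 5 and 6 in red and replicate 4 as a diamond. Replicate 4 lies with its mates for receptor targets and cholesterol synthesis, and above them for respiratory, ribosomal and proteasome genes.

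Stress response genes were mixed. Of 27 heat shock genes 11 were lower and 3 higher (13 and 2 without replicate 4). The inducible Hspa1a stood at 0.58, 0.83, 0.52 and 0.88 against 2.57, 2.84, 2.63 and 2.92. Of 37 genes of the unfolded protein and ATF4 response 12 were higher and 8 lower (12 and 11 without replicate 4). Those past 2-fold higher were Atf5, a transcription factor gene, at 1.11 ± 0.08, Chac1, which degrades glutathione, at 1.17 ± 0.10, and Cebpb at 1.01 ± 0.19, while the chaperone gene Canx fell by 0.40 ± 0.05. Among p53 targets 8 of 29 were higher and 14 lower (9 and 11 without replicate 4). The mTORC1 restrainers Sesn1 and Sesn2 rose by 0.88 ± 0.06 and 0.89 ± 0.06 and Plk2 fell by 1.41 ± 0.10. Among regulators of apoptosis 7 of 35 were higher and 14 lower. The inhibitor genes Birc2, Birc3 and Bcl2l1 rose by 1.11 ± 0.09, 1.5 ± 0.19 and 1.03 ± 0.12, and so did the death receptor gene Fas by 1.23 ± 0.19.

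Feedback genes of growth factor signalling were mostly lower. Of 41 MAP kinase feedback and immediate early genes 26 were lower and 5 higher with replicate 4 and without it, with a median of -0.47 in each. Dusp4 and Dusp6, phosphatases induced by ERK, fell by 2.09 ± 0.12 and 0.95 ± 0.14, Egr1 by 0.67 ± 0.10 and Nr4a1 by 1.62 ± 0.09, while Fos was at -0.35 ± 0.15 (adjusted p = 0.051, and called at -0.46 without vehicle replicate 4) and Dusp7 rose by 0.86 ± 0.08. Of 25 EGF receptor family genes 11 were lower and 6 higher. The ligand genes Hbegf and Tgfa fell by 0.65 ± 0.06 and 0.69 ± 0.07, and Met, the receptor for hepatocyte growth factor, by 1.33 ± 0.14. Of 36 insulin and IGF genes 16 were higher and 9 lower (20 and 9 without replicate 4), with the binding protein gene Igfbp3 at 3.58 ± 0.16, Foxo3, a factor that insulin holds out of the nucleus, at 1.32 ± 0.07 and Ddit4l, an mTORC1 inhibitor gene, at -2.04 ± 0.23.

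Called Wnt and Notch genes were mostly lower. Of 36 Wnt genes 18 were lower and 7 higher (median -0.31, and -0.24 without replicate 4), with the secreted inhibitor genes Sfrp2 and Dkk3 at -1.55 ± 0.13 and -0.87 ± 0.05 and the ligand gene Wnt5b at -1.97 ± 0.25, while the receptor gene Fzd4 rose by 0.97 ± 0.10. Of 22 Notch genes 11 were lower and 2 higher, with the target Hes1 at -1.44 ± 0.11 and the glycosyltransferase gene Lfng at -0.75 ± 0.06. Of 46 TGF-beta and BMP genes 17 were lower and 11 higher (15 and 13 without replicate 4). The ligand genes Tgfb3 and Inhbb were at -1.24 ± 0.10 and -1.22 ± 0.08, while the BMP targets Id1 and Id3 rose by 1.17 ± 0.11 and 1.04 ± 0.08 and Ltbp4, which stores the latent ligand, by 2.47 ± 0.34. Of 40 YAP and actin-regulated genes 20 were lower and 7 higher, with F3, tissue factor, at -0.88 ± 0.08 and Actn1, a crosslinker of actin, at 1.24 ± 0.12.

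Inflammatory mediator genes were mostly lower. Of 30 measured mediators and chemokines (of 53 listed) 17 were lower and 6 higher, also without replicate 4, with medians of -0.57 and -0.49, and 3 were higher without vehicle replicate 4. Ccl2, which draws monocytes, stood at 2.53, 2.62, 2.37 and 2.33 against 4.37, 4.37, 4.17 and 4.51, and Cxcl1, which draws neutrophils, at 3.04, 3.18, 3.08 and 3.16 against 4.27, 4.29, 4.30 and 4.48. Against this majority the complement genes C3 and C4b rose by 1.54 ± 0.17 and 1.71 ± 0.15. Of 42 NF-kB pathway genes 16 were lower and 12 higher, with Cd274, the checkpoint ligand PD-L1, at -1.08 ± 0.07 and Tnfaip2 at -2.06 ± 0.29. Sites for AP-1 (TGANTCA, on both strands) were in 11% of promoters of genes at least 2-fold lower, 7.28% of those at least 2-fold higher, 6.4% of all genes called lower and 6.28% of all genes. They were in 0 of 32 promoters of MAP kinase feedback and immediate early genes.

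More interferon-stimulated genes were lower than higher, and 1 rose by far more than the others. Of 56 measured 25 were lower, 10 higher and 21 not called, with a median of -0.21, and without replicate 4 the counts were 23, 8 and 25. Rsad2, the antiviral protein viperin, stood at -0.11, -0.17, 0.63 and -0.00 against 2.55, 2.81, 3.15 and 2.73. Isg15, a ubiquitin-like modifier, stood at 2.14, 2.54, 2.05 and 2.02 against 3.29, 3.3, 3.28 and 3.52, and Gbp2, a guanylate-binding protein gene, at 3.13, 3.13, 3.00 and 3.18 against 4.03, 4.01, 4.01 and 4.13. The large rise was that of Ifi207, of a cluster of near-identical DNA sensor genes whose reads can be shared, at 6.02, 5.87, 5.81 and 6.1 against 1.28, 1.03, 0.77 and 1.31. Of 21 measured class I and antigen processing genes 10 were lower and 0 higher, led by the peptide-loading gene Tapbp at -0.86 ± 0.09. The interferon-stimulated response element (GAAA, any 2 bases, GAAA, on both strands) stood in 24 of 44 promoters of interferon-stimulated genes (54.5%), 3.74% of all genes called lower and 3.70% of all genes. It is marked in capitals in the promoters of the 3 called members with the smallest p among those with a match, of which Ifi207 rose while Rsad2 and Gbp2 fell.
Ifi207, chr1:173741810-173741909, minus strand: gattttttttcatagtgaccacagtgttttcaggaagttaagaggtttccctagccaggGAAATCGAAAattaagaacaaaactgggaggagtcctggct
Rsad2, chr12:26456518-26456617, minus strand: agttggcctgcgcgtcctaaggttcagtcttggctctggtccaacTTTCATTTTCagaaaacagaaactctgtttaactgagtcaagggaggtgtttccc
Gbp2, chr3:142620559-142620658, plus strand: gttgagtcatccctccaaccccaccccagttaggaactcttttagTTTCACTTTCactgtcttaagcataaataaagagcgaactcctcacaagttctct

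Collagens and matrix proteins were mostly lower. Of 38 measured collagens and matrix proteins (of 53 listed) 24 were lower and 3 higher, with medians of -0.45 and, without replicate 4, -0.50. Tenascin C, Tnc, stood at 8.41, 8.15, 8.24 and 8.38 against 9.33, 9.43, 9.29 and 9.38, and Col6a2, a chain of the beaded-filament collagen, was at -1.26 ± 0.06. Against them decorin, Dcn, which binds collagen and growth factors, stood at 6.4, 6.68, 6.54 and 6.3 against 3.56, 3.85, 3.62 and 3.85, and Efemp1, a fibulin gene, rose by 1.78 ± 0.12. Of 34 matrix proteases, inhibitors and crosslinkers 17 were lower and 6 higher (20 and 6 without replicate 4). Plat, tissue plasminogen activator, was at -0.87 ± 0.05, Adamts4 at -1.87 ± 0.21 and Adamts1 at 1.55 ± 0.10. Of 15 integrins 6 were lower, 0 higher and 9 not called.

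Junction genes fell more often than they rose. Of 36 measured 14 were lower and 5 higher (14 and 7 without replicate 4). The epithelial cadherin gene Cdh1 stood at 1.77, 1.36, 1.79 and 1.68 against 3.06, 2.91, 2.70 and 2.89, well below Cdh2 in reads, which was at -0.12 ± 0.04. The pore-forming claudin gene Cldn2 fell by 2.15 ± 0.20. The barrier claudin gene Cldn1 stood at 5.69, 5.75, 5.70 and 5.61 against 3.89, 3.72, 3.63 and 3.90, and Gja1, the gap junction protein connexin 43, at 5.83, 5.74, 5.90 and 5.72 against 4.02, 3.93, 3.87 and 4.08. Of 18 measured cornified envelope and S100 genes (of 31 listed) 5 were lower and 4 higher, and 4 of the lower ones passed 2-fold. Without replicate 4 the counts were 7 and 3. Sprr1a, an envelope precursor in a family of close copies, stood at 3.14, 3.89, 3.48 and 3.57 against 6.04, 5.96, 5.80 and 6.11.

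Among transcription factors the Kruppel-like, C/EBP and FoxO families held 8 of the larger rises, with 12 of 30 higher, 6 lower and 8 members at least 2-fold higher. Klf13 rose by 1.94 ± 0.09 and the C/EBP gene Cebpd by 2.06 ± 0.15, while Klf4 fell by 0.97 ± 0.08. Of 39 measured developmental factors 15 were higher and 9 lower (14 and 7 without replicate 4), with the homeobox gene Six4 at 1.39 ± 0.10 and Gata3 and Gata6 at 0.82 ± 0.07 and 1.04 ± 0.15. Of 21 clock genes 10 were higher and 4 lower, with Per1 and Per2, repressors of their own transcription, at 2.02 ± 0.08 and 1.70 ± 0.08 and Per3 at 0.02 ± 0.05 (adjusted p = 0.79). The repressor gene Nfil3 rose by 1.52 ± 0.09, whereas the REV-ERB gene Nr1d1 fell by 0.51 ± 0.08. Of 35 hypoxia response genes 16 were higher and 9 lower (14 and 8 without replicate 4). They included Epas1, which encodes HIF-2 alpha, at 2.61 ± 0.39 and Hif3a at 3.51 ± 0.55, both from below 0 log2 CPM, and Vegfa at 0.25 ± 0.06. Of 61 chromatin enzymes 20 were lower and 8 higher (15 and 9 without replicate 4), with the deacetylase gene Hdac9 at -1.67 ± 0.08.

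Day 0 libraries place both day 3 groups. Vehicle cultures at day 3 differed from day 0 in 9083 genes (69.2%), 4789 higher (36.5%) and 4294 lower (32.7%), and treated cultures in 10037 (76.5%), 5194 higher (39.6%) and 4843 lower (36.9%). Both comparisons share the day 0 libraries, so their values are given side by side only. The mitosis list had a median of -1.35 in vehicle and -2.43 in treated cultures against day 0, and collagens and matrix proteins -0.05 and -0.59. The cholesterol list stood at 0.58 and -0.24, complex I at -0.01 and 0.53, and mediators and chemokines at 0.38 and -0.79. Interferon-stimulated genes stood at 1.12 and 0.78. For Dcn the values were 3.29 and 6.05, for Klf15 2.42 and 5.19, for Rsad2 2.92 and 0.19, for Vcam1 1.49 and -1.60 and for Gja1 -2.71 and -0.89.

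The difference at day 3 also departed from that found after the hormone was withdrawn. The corticosterone effect at day 6 differed from that at day 3 in 1196 genes (9.11%), with the effect higher at day 6 in 553 (4.21%) and lower in 643 (4.90%). These tests share the day 3 libraries with the day 3 comparison. The falls of 2 sterol genes were smaller at day 6, by 1.13 for Cyp51 and 0.92 for Hmgcs1. For Adm, which rose by 4.35 ± 0.35 at day 3, the day 6 effect minus the day 3 effect was -4.78 (adjusted p = 1.8e-07), for Dcn -1.51 and for Por -0.85. For Folh1 it was 0.29 (adjusted p = 0.85), for Aldh1a1 -0.01 (adjusted p = 0.97) and for Mki67 -0.07 (adjusted p = 0.73).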

How the data were processed

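RNA-seq of DC2 cells was used as 1 deposited table of log2 CPM values, normalized by the authors, with 13129 entries and 28 libraries. Per the submitters' processing notes kallisto, edgeR 3.40.1, limma 3.54.0 and the build mm10 were used. The annotation, normalization and prior count are not given in the sources used here. Whole reads were not recovered from these values, so no count test was run.

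A model with 7 groups and an intensity trend was fitted over all 28 libraries (21 residual degrees of freedom) with limma 3.58.1 and statmod 1.5.0 in R 4.3.3. Corticosterone at day 3 was contrasted with vehicle at day 3, both with day 0, and the day 6 effect with the day 3 effect. The 1 entry without a symbol was left out, and requiring a value over 0 in 4 or more libraries removed 0 genes. Genes with a Benjamini-Hochberg adjusted p under 0.05 were called. Exact permutation of 4 against 4 libraries cannot go below a two-sided p of 0.0286. Groups came from the labels. Replicate numbers 4, 5 and 6 occur in both groups, and the deviations of same-numbered libraries correlated at 0.07, -0.03 and 0.06, so the numbers were not used as pairs.

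The comparison, gene lists and named genes were chosen with earlier results of these data known. Named were the 15 largest rises and falls (called with and without replicate 4, mean of at least 1 log2 CPM, no overlap), the 10 largest gains and losses in CPM, the 5 largest shifts without replicate 4, and, from each list described, up to 3 called members by smallest p, 3 by largest fold, 2 against the majority and any whose role was needed, and up to 3 promoters of called list members per motif shown. The 1 predicted gene model met was passed over, and some genes these rules chose are not reported here. Promoters were searched on both strands with 7 motifs. The calls of the model were tested on simulated data with planted changes. Alternatives covered libraries left out, filters, scaling, pseudocounts, moderation, weights, blocks and thresholds.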

Additional observations from a re-analysis of the deposited data

Results flagged for a closer look

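A library stood apart where its gap to the nearest of its 3 mates exceeded, as a share of the group's range, Dixon's critical value for 4 samples, in the 247 genes named and the 60 lists of each group, and chance alone gives this in about 1 of 20 groups of values. Values in brackets are log2 distances from the mean of the 3 mates. In corticosterone replicate 1 the genes apart were Epcam (0.48) and Lpin3 (0.46). In corticosterone replicate 4 the list means apart were those of glucocorticoid receptor machinery (-0.14), glutathione and antioxidant enzymes (0.28), respiratory complexes II to V (0.50), mitochondrial ribosome (0.47), mitochondrial fatty acid oxidation (0.19), amino acid and one-carbon metabolism (0.20), ribosome biogenesis (0.18), cytosolic ribosomal proteins (0.68), EGF receptor ligands and receptors (-0.09) and nuclear receptors (-0.25). In corticosterone replicate 4 the genes apart were Atp5b (0.79), Canx (-0.31), Cd274 (-0.33), Chchd10 (0.65), Fth1 (0.52), Gsta3 (0.44), Klf15 (0.25), Map3k6 (0.58) and Mt1 (0.63). Further such genes were Ndufb10 (0.76), Pgam1-ps2 (-7.03), Rpl10a-ps1 (-7.33), Rrs1 (0.22), Sdhb (0.43), Sgk1 (-0.26) and Tgfb3 (0.14). In corticosterone replicate 5 the gene apart was Scnn1a (-0.23). In vehicle replicate 3 the genes apart were Efemp1 (-0.13), Krt19 (-0.84), Mcm5 (-0.09), Mki67 (0.19) and Ndufb10 (-0.13). In vehicle replicate 4 the list means apart were those of mitochondrial fatty acid oxidation (0.05). In vehicle replicate 4 the genes apart were Actn1 (0.19), Klf13 (0.13) and Serinc3 (-0.10). In vehicle replicate 5 the list means apart were those of glucocorticoid receptor machinery (-0.06) and epididymal secretory and luminal genes (0.14). In vehicle replicate 5 the genes apart were Cd68 (-0.05), Pgam1-ps2 (-0.60) and Slc39a14 (0.22). In vehicle replicate 6 the genes apart were Cd274 (0.10), Isg15 (0.23), Me1 (-0.17) and Tapbp (0.06). In the treated group 19 genes and 10 lists had a library apart, of which replicate 4 gave 16 and 10. Replicate 4 was known beforehand as the library with the largest deviations, and 5 of the genes were named for their shift without it. Its counts therefore describe that library and cannot be set against chance. In the vehicle group 15 genes and 3 lists had one.

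The corticosterone effect at day 6 differed from that at day 3 in 1196 genes by limma's interaction contrast. Among the genes named here it did in 65, and the values in brackets are the day 6 effect minus the day 3 effect on the log2 scale. Genes higher at day 3 with a lower effect at day 6 were, by size, Adm (-4.78), Cyp2b10 (-2.43), Lcn2 (-1.66), Npr1 (-1.56), Cyp4a12a (-1.52), Dcn (-1.51), Serpina3n (-1.43), Gja1 (-1.27), Hk2 (-1.27) and Ifi207 (-1.23). The next were Prodh (-1.01), Cebpd (-0.91), Amy1 (-0.90), Gata6 (-0.89), Por (-0.85), C4b (-0.82), Map3k6 (-0.81), C3 (-0.79), Cldn1 (-0.77) and Klf15 (-0.72). The next were Vegfa (-0.69), Scnn1a (-0.62), Per2 (-0.60), Dhrs3 (-0.55), Glud1 (-0.49), Nfkbia (-0.41), Per1 (-0.36), Ugt1a6a (-0.34) and Errfi1 (-0.31). Genes lower at day 3 with a higher effect at day 6 were Hes1 (1.17), Cyp51 (1.13), Cdh6 (0.93), Hmgcs1 (0.92), Hsd11b2 (0.91), Dhrs9 (0.79), Acsl3 (0.76), Dkk3 (0.73), Cyp1b1 (0.70) and Tnc (0.70). The next were Tspan18 (0.57), F3 (0.56), Lfng (0.49), Srebf2 (0.48), Timp3 (0.45), Tgfb3 (0.43), Scd1 (0.42), Pax8 (0.42), Ivns1abp (0.40) and Col18a1 (0.37). The next were Txnrd1 (0.32), Col6a2 (0.30) and Me1 (0.27). Genes higher at day 3 with a still higher effect at day 6 were Fzd4 (0.82) and Id3 (0.70). Genes lower at day 3 with a still lower effect at day 6 were Srd5a2 (-1.78), Etv4 (-1.42), Sprr1a (-1.37), Ccl2 (-0.56), Cd68 (-0.53), Krt18 (-0.51), Steap3 (-0.44) and Itgb6 (-0.34). Of these Krt18 was at -0.23 ± 0.09 at day 3 (limma adjusted p = 0.046). Its call was lost without vehicle replicate 3, 4 or 5 or corticosterone replicate 1, 5 or 6, each in turn. Among genes not called at day 3 were Per3 (-1.0), Cftr (0.72) and Cldn4 (0.62).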

How the results depend on the processing

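The count of 6429 genes called at day 3 ranged from 5915 to 6581 on leaving out each of the 8 libraries in turn. It was 4773 in a fit of the 8 day 3 libraries alone and 951 in a test against a change of 1.5-fold. The replicate numbers were not used as pairs, and whether same-numbered libraries shared a culture was not tested. With the number as a fixed replicate block 6325 genes were called, with a random block 6463, and with a replicate block on numbers 4, 5 and 6 alone 2507, from 6 libraries. The other settings gave 4978 to 6872. Genes at least 2-fold changed were 478 higher and 428 lower, 345 and 238 with log2(CPM + 1), and 196 and 93 with log2(CPM + 5), since a pseudocount shrinks the folds of low genes. Leaving out each library of the groups compared gave 8705 to 8796 genes for vehicle at day 3 against day 0 (9083 with all), 9732 to 10172 for corticosterone, and 918 to 1449 for the day 6 effect minus the day 3 effect. Most libraries left out of these 3 comparisons were chosen after seeing the data. Of 229 called genes named here, 13 lost their call under at least 1 setting other than stricter thresholds and the 6-library block. Values of genes not called at day 3 that turned sign ranged, with 1 library left out, from -0.027 to 0.082 in Cdkn1a, -1.01 to 0.91 in Grip2, -0.013 to 0.14 in Pax2, -0.022 to 0.060 in Per3, -1.34 to 0.065 in Pcdhgc4, -1.09 to 0.63 in Pcdhgc5 and -1.94 to 0.78 in Rpl10a-ps1. Library weights gave -0.0052 in Cdkn1a, -0.72 in Grip2, 0.34 in Pcdhgc5 and 0.62 in Rpl10a-ps1. The fit of 7 day 3 libraries gave -0.027, -1.01, 0.63 and 0.78 in these 4, and the 6-library block -0.025 in Pax2 and -0.046 in Per3. Quantile normalization turned mt-Atp6 (-0.044) and mt-Cytb (-0.072). The cause of these turns was not tested. Depth is unknown, so precision rests on the spread between libraries, which the model shared over the groups of all 28.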

Other observations

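Of 58 measured lysosome and V-ATPase genes 13 were higher and 20 lower with corticosterone at day 3 (median -0.04, and 12 and 25 without replicate 4), against 23.3% higher and 25.6% lower among all genes. Of them the cathepsin genes Ctso and Ctsl rose by 2.03 ± 0.08 and 0.69 ± 0.05. Of 25 caveolae and tetraspanin genes 2 were higher and 13 lower, with the caveolar coat gene Cavin2 at 1.54 ± 0.07 and Tspan18 and Tspan5 at -1.41 ± 0.08 and -0.59 ± 0.05. Of 36 genes of vesicle biogenesis 7 were higher and 6 lower. Smpd3, a sphingomyelinase that acts in exosome release, rose by 1.77 ± 0.12, and the syntenin gene Sdcbp fell by 0.41 ± 0.05. Of 19 genes of small RNA processing 3 were higher and 5 lower (8 lower without corticosterone replicate 6), among them Xpo5, which exports microRNA precursors, at -0.26 ± 0.04.

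Of 25 prostaglandin and annexin genes 8 were higher and 7 lower, against 23.3% higher and 25.6% lower among all genes. The receptor gene Ptger4 rose by 0.80 ± 0.09, and Pla2g4a, the phospholipase that frees arachidonic acid, fell by 0.59 ± 0.09. Of 18 amino acid transporters 6 were higher and 6 lower (7 and 5 without replicate 4), with Slc7a5 at 0.58 ± 0.06 and Slc38a1 at -0.68 ± 0.10. Of 21 keratins and other epithelial identity genes 5 were higher and 6 lower, with periplakin, Ppl, at 1.32 ± 0.10 and Krt20 at 1.84 ± 0.26. Of 29 nuclear receptors 10 were higher and 7 lower.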
